A study of Arabidopsis thaliana with 6 samples.

Results

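Genes for 16 cytosolic proteins of the large ribosomal subunit, L4 to L18, were followed in shoots of Arabidopsis thaliana seedlings. The list holds 44 loci, chosen by their AGI locus codes and grouped by the protein they encode. Of these, 31 have a probe set named with that gene alone and are described here as measured members. A further 3 loci lie on probe sets that name a pair of loci, and 10 loci, for which no probe set is named here, were not analysed. In all, 13355 genes of the array have a probe set of their own.

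The cytosolic ribosome reads mRNA into protein, and its large subunit holds the site of peptide bond formation and the tunnel through which the new chain leaves. In Arabidopsis nearly every one of its proteins is encoded by a small family of paralogous genes. PGY1 (PIGGYBACK1, AT2G27530), which encodes L10a, is known for its effect on leaf polarity in combination with other mutations.

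RNA came from seedlings grown at 21 degrees C under 16 h of light and taken 10 days after germination, on 3 arrays of the double mutant pvip1 pvip2 and 3 of wild-type Col-0. PVIP genes encode PHD-finger proteins, also called OBERON proteins, that act in meristem formation, and the labels do not name the mutant alleles. Roots were cut off the wild type, and the mutant was likewise wounded, by a cut through its vestigial hypocotyl. Each Affymetrix ATH1 array carries 22746 probe sets beside its controls, each with a log2 signal from the authors.

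Some arrays stand apart from the others of their genotype. OBE1 (AT3G07780), a PVIP gene, stood at a log2 signal of 2.54, 2.61 and 2.53 in the mutant, at 5.08 and 5.17 in Col-0 replicates 2 and 3, and at 2.42 in Col-0 replicate 1. The last of these values goes against its array's label. In the green leaf, dividing cell and root marker sums below, that array lay with the other Col-0 arrays and outside the range of the mutant. For the GAPDH control, signal at the 3' end minus that at the 5' end was 0.55 to 0.91 (log2) in the mutant. In Col-0 it was 1.08, 0.97 and 2.31 in replicates 1, 2 and 3, without overlap between the genotypes. The 25S rRNA control had a log2 signal of 10.15 in Col-0 replicate 3 and 5.96 to 7.67 on the other arrays. The part of RNA quality in the results below was not tested. The 5 markers of green leaf had a log2 of their summed linear signal of 13.82 to 14.20 in the mutant and 14.40 to 14.56 in Col-0. The 3 measured markers of dividing cells, of 5 listed, summed likewise to between 6.56 and 6.65 in the mutant and between 7.40 and 7.73 in Col-0. The 3 root markers summed to between 11.78 and 11.81 in the mutant and between 10.01 and 10.09 in Col-0, nearly all of it from the beta-glucosidase gene PYK10. CLV3, the 1 measured shoot meristem marker of 3, stood at a log2 signal of 2.40 to 2.88. The part of tissue make-up in the results below was not tested, and in RNA of whole shoots fewer cells of a type and less RNA per cell cannot be told apart.

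None of the 31 measured members was called different between the genotypes. Across all 22746 probe sets 13.4% were called (limma, adjusted p under 0.05), 6.85% higher and 6.51% lower in the mutant, and 21.5% of the 2334 with a mean log2 signal of 8 or more, a level that 26 of the 31 members reach. The mean was higher in the mutant for 16 members and lower for 15. The median log2 change, pvip1 pvip2 minus Col-0, was 0.00 for the members and -0.05 for all probe sets. The median size of the log2 change, without regard to sign, was 0.16 for the members, 0.21 for all probe sets and 0.35 for those with a mean log2 signal of 8 or more. At an unadjusted p under 0.05 there was 1 member, against 27.1% of all probe sets. The genotypes did not overlap in log2 signal for 7 of the 31 (22.6%), against 32.2% of all probe sets and 46.1% of those with a mean of 8 or more. Of these 7, 4 were higher in pvip1 pvip2 and 3 lower. A fit that pairs arrays by replicate number called 0 members and 19.2% of all probe sets, 9.39% higher and 9.82% lower. Leaving out Col-0 replicate 1, or replicate 3, also gave 0.

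**Figure D1:**
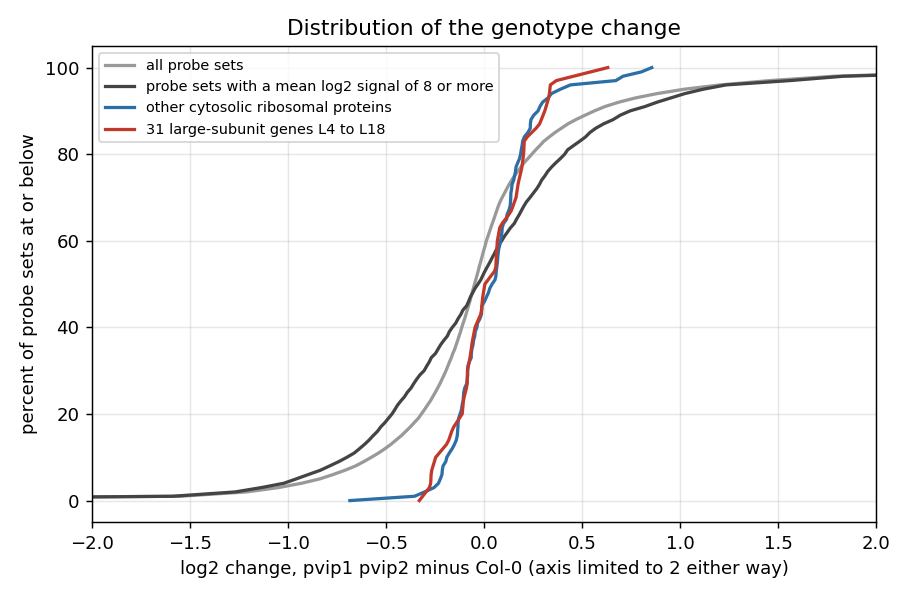
Cumulative distribution of the log2 change, pvip1 pvip2 minus Col-0 (horizontal axis, limited to 2 either way), as the percent of probe sets at or below each change (vertical axis). The lines for the 31 members and for the other cytosolic ribosomal proteins are steeper than the lines for all probe sets and for those with a mean log2 signal of 8 or more.

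A missed threshold does not show that a gene is level, so the 95% intervals of the log2 changes were examined. Of the 28 members with a mean log2 signal above the 40th percentile of all probe sets, the interval lay inside a 2-fold change in either direction for 27 and inside a 1.5-fold change for 21. The 3 members below that level were left out of these counts, since a probe set at the bottom of the scale can have a narrow interval whatever its transcript does. Their SEs were 0.15 (AT3G51190), 0.12 (AT3G48960) and 0.11 (AT2G47570), against a median of 0.14 for the members. The exception to the wider bound was AT1G80750, an L7 gene. It read 6.99, 7.56 and 6.77 in the mutant against 5.76, 6.60 and 7.06 in Col-0 on the log2 scale. The genotypes overlapped, and the SD of 0.66 in Col-0 (n = 3) was the largest of any member. Its log2 change was 0.63 with a 95% interval from -0.15 to 1.41 (adjusted p = 0.2858). The change was 0.27 without Col-0 replicate 1, 0.40 without mutant replicate 2, 0.93 without Col-0 replicate 3 and 1.09 on the first fluidics station alone.

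**Figure D2:**
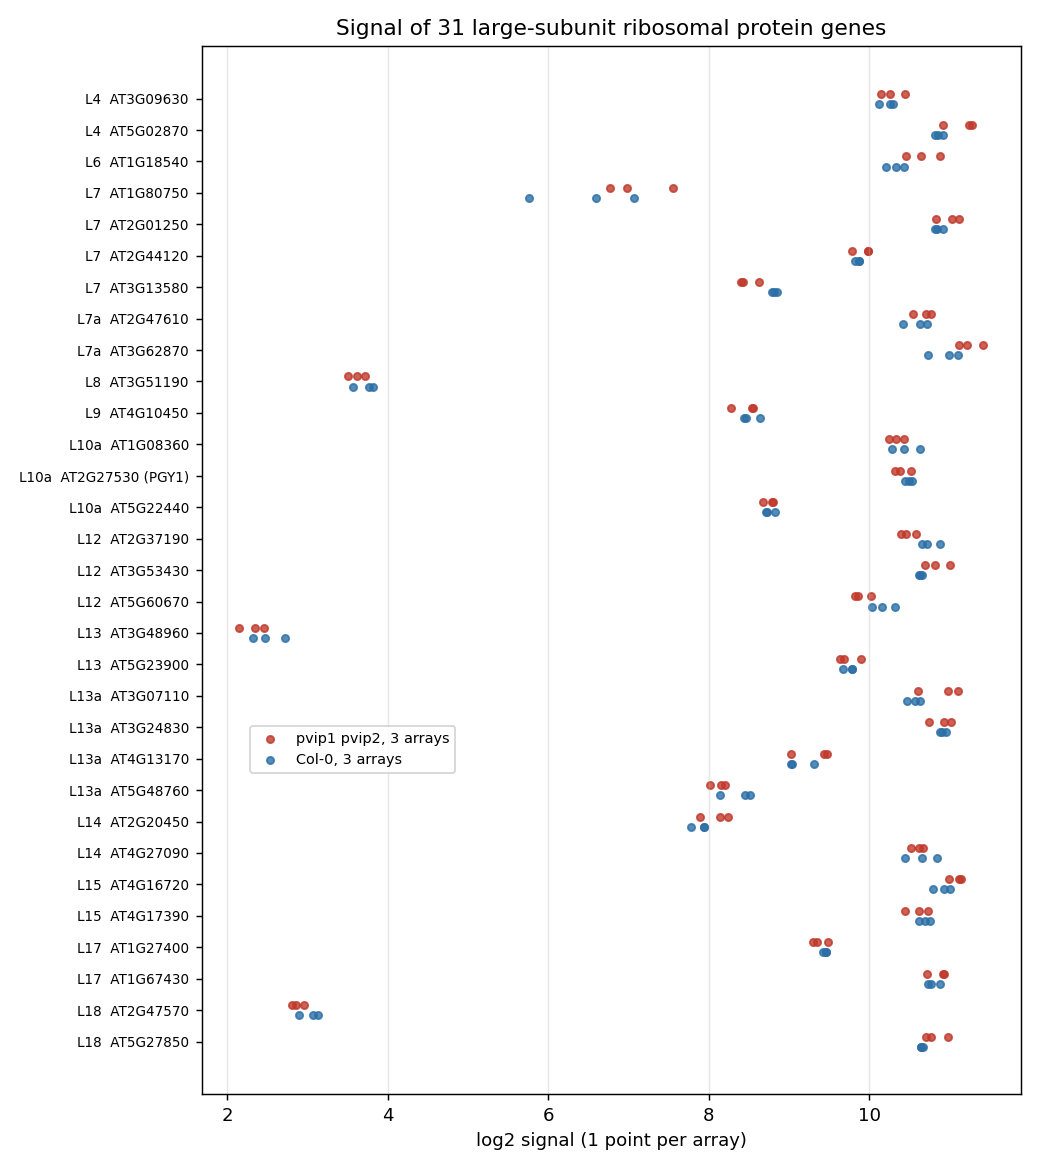
Log2 signal (horizontal axis) of the 31 measured members, 1 point per array, with pvip1 pvip2 in red and Col-0 in blue. Most members lie between 8 and 11.5 in both genotypes, AT1G80750 is the most spread, and AT3G51190, AT3G48960 and AT2G47570 lie under 4.

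Another 3 genes sat at the bottom of the scale. AT3G51190, for L8, a protein of the subunit's catalytic core, ran from 3.51 to 3.82 over the 6 arrays. AT3G48960, for L13, ran from 2.15 to 2.72, and AT2G47570, for L18, from 2.80 to 3.14. On the log2 scale these 3 levels lie near the 40th percentile of all probe sets, 3.81, or below it. No detection call was used here, so whether these genes were detected is not known. Their log2 changes were -0.11, -0.19 and -0.16, and all 3 were -0.02 to -0.01 with 64 added to the linear signal.

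L10a forms a mobile arm of the large subunit beside the site where used tRNA leaves. PGY1 read 10.38, 10.32 and 10.52 in the mutant against 10.50, 10.53 and 10.45 in Col-0 on the log2 scale. The genotypes overlapped, and the log2 change was -0.09 (SE 0.12, 95% interval from -0.36 to 0.19, adjusted p = 0.7188). Its paralogue AT1G08360 read 10.25, 10.43 and 10.33 in the mutant against 10.29, 10.44 and 10.63 in Col-0, and the log2 change was -0.11 (SE 0.14). The other L10a gene, AT5G22440, gave 8.68, 8.79 and 8.80 in the mutant and 8.72, 8.83 and 8.72 in Col-0. Both of these genes overlapped between the genotypes too, and the interval for AT5G22440 ran from -0.30 to 0.31.

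The use of paralogues was then compared as a share. On each array the log2 signals of the measured paralogues of a protein were made linear and summed, and each paralogue was given as a percent of that sum. Probe sets bind their targets with different strength, so a share is of signal and not of transcripts, and only its difference between genotypes is compared. A shift of a whole array cancels in it. Shares could be computed for 28 paralogues of 11 proteins, and both shares of a protein with 2 measured paralogues mirror each other. With 3 arrays against 3, the smallest p of the two-sided exact permutation test is 0.1, so no share could pass a threshold of 0.05, and after adjustment over the 28 shares the smallest was 0.2333.

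PGY1 supplied 45.0%, 41.2% and 45.9% of the L10a signal in the mutant and 46.4%, 44.6% and 41.1% in Col-0. The means were 44.03% ± 2.48 and 44.03% ± 2.73 in that order (SD, n = 3 each), and the genotypes overlapped. AT1G08360 stood at 41.9% ± 2.26 and 42.8% ± 3.38 (SD, n = 3 each). The share of AT5G22440 was 14.02% ± 0.227 in the mutant and 13.2% ± 0.699 in Col-0 (SD, n = 3 each), with no overlap. That difference was 0.828 percentage points (exact permutation p = 0.1). It was 0.426 points without Col-0 replicate 3, 0.484 on the first station and 0.154 with quantile normalization.

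**Figure D3:**
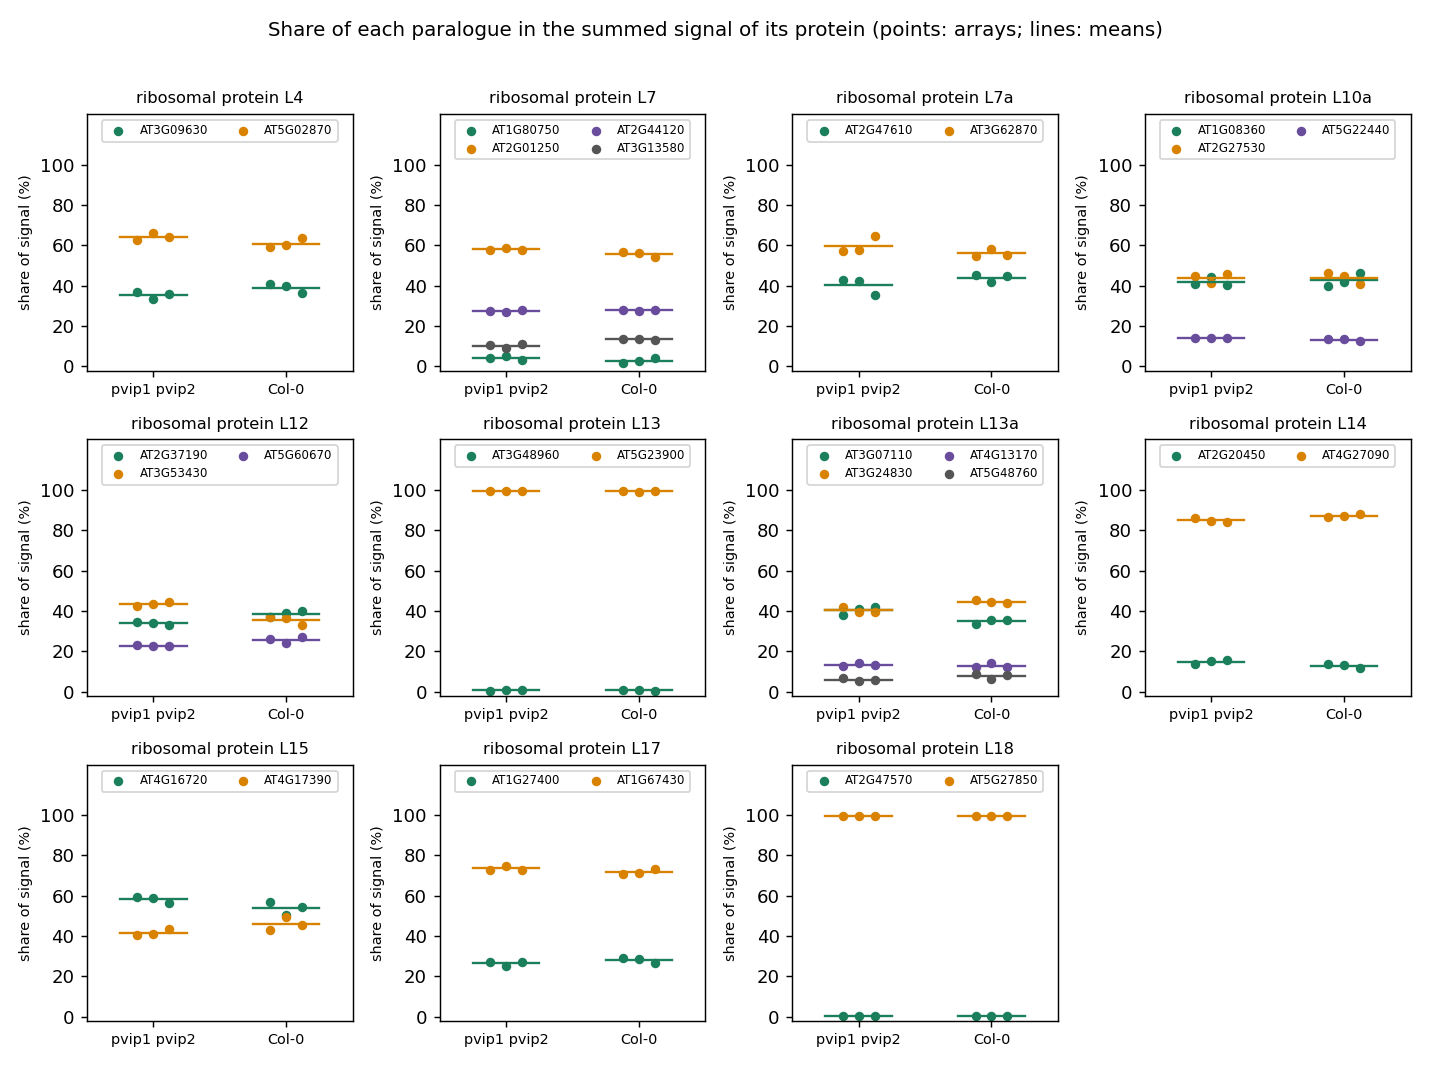
Share of each measured paralogue in the summed linear signal of its protein, in percent (vertical axis), for the 11 proteins with at least 2 measured paralogues, by genotype (horizontal axis). Points are arrays and lines are means of 3 arrays; the shares differ by at most 7.82 percentage points between the genotype means.

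L12 sits at the base of the stalk that recruits translation factors, and its family showed the widest difference in shares among the 11 proteins. AT3G53430 read 10.70, 10.81 and 11.01 in the mutant against 10.66, 10.63 and 10.62 in Col-0 on the log2 scale. AT2G37190 gave 10.39, 10.46 and 10.58 in the mutant and 10.65, 10.72 and 10.88 in Col-0. AT5G60670 gave 9.83, 9.86 and 10.02 in the mutant and 10.15, 10.04 and 10.32 in Col-0. For each of the 3 genes the genotypes were apart, with the mutant above Col-0 for AT3G53430 and below it for the other two. The log2 changes were 0.20, -0.27 and -0.27 in that order (SE 0.13, 0.13 and 0.14), and none was called (adjusted p = 0.3656, 0.2105 and 0.2512). The change of AT3G53430 was 0.12 without mutant replicate 3 and 0.11 on the first station.

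The share of AT3G53430 in the L12 signal was 42.5%, 43.5% and 44.5% in the mutant and 37.1%, 36.7% and 33.2% in Col-0. Its mean was therefore 7.82 percentage points higher in the mutant, against SDs of 0.991 and 2.15 (n = 3 each, exact permutation p = 0.1). AT2G37190 held 33.8% ± 0.626 in the mutant and 38.5% ± 1.505 in Col-0, and AT5G60670 22.7% ± 0.416 and 25.8% ± 1.39 (SD, n = 3 each). All 3 shares were without overlap. Within an array, AT3G53430 exceeded the mean of the other two by 0.65 ± 0.06 in the mutant and 0.18 ± 0.14 in Col-0 on the log2 scale (SD, n = 3 each). That difference of 0.47 had an exact permutation p of 0.1, the smallest possible, or 0.2545 adjusted over the 28, so it passed no threshold, and a ratio does not say which paralogue differs. The summed L12 signal was 12.04 ± 0.12 in the mutant and 12.13 ± 0.07 in Col-0 on the log2 scale (SD, n = 3 each). The share difference of AT3G53430 was 8.52 percentage points without Col-0 replicate 1, 6.58 without Col-0 replicate 3 and 6.09 on the first fluidics station alone.

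**Figure D4:**
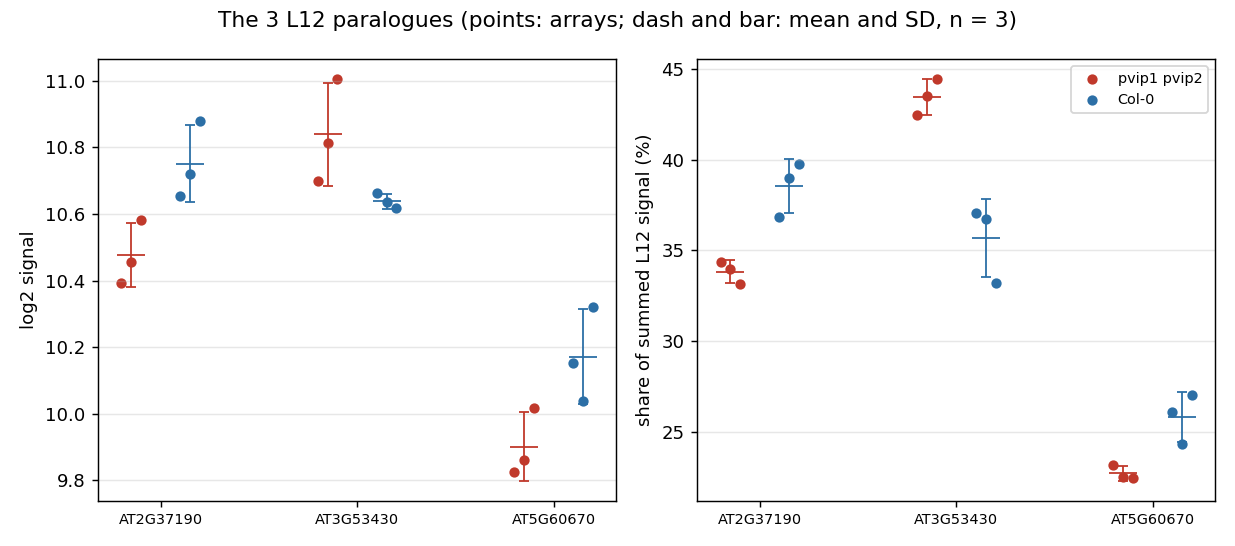
The 3 L12 paralogues (horizontal axis) as log2 signal (left) and as share of the summed L12 signal in percent (right), with pvip1 pvip2 in red and Col-0 in blue. Points are arrays and the dash and bar are mean and SD, n = 3; the vertical axes do not start at 0. For AT3G53430 the mutant lies above Col-0, and for AT2G37190 and AT5G60670 it lies below.

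L4 and L17 line the exit tunnel. AT5G02870, an L4 gene, read 10.91, 11.24 and 11.28 in the mutant against 10.82, 10.86 and 10.92 in Col-0 on the log2 scale, with a log2 change of 0.28 (SE 0.14, adjusted p = 0.2317). It stood at 64.4% ± 1.73 of the L4 signal in the mutant and 61.0% ± 2.30 in Col-0 (SD, n = 3 each), and AT3G09630 supplied the rest. The genotypes overlapped in both measures. Of the L17 signal AT1G67430 held 73.6% ± 1.14 in the mutant and 71.8% ± 1.41 in Col-0, and AT1G27400 held the rest, again with overlap. That difference of 1.79 points was 1.13 without mutant replicate 2 and 2.93 on the first station. The log2 changes of the L17 genes were 0.06 and -0.07.

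The remaining proteins bind ribosomal RNA over the body and surface of the subunit. Of the 11 proteins, L13a had the largest share difference after L12. AT3G07110 read 10.60, 10.98 and 11.11 in the mutant against 10.48, 10.64 and 10.57 in Col-0 on the log2 scale, a log2 change of 0.34 (SE 0.16, adjusted p = 0.2043). The genotypes overlapped by 1 mutant array in level but not in share. Its share of the L13a signal was 40.3% ± 1.92 in the mutant and 34.9% ± 1.06 in Col-0 (SD, n = 3 each). The share of AT3G24830 was 40.3% ± 1.56 and 44.5% ± 0.747 in that order (SD, n = 3 each). In level AT3G24830 overlapped between the genotypes, with a log2 change of -0.01 (SE 0.12, adjusted p = 0.9598). AT4G13170 and AT5G48760 held 13.4% and 5.93% in the mutant and 12.9% and 7.71% in Col-0, with overlap.

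Of the 4 L7 genes, AT3G13580 was the member with the lowest unadjusted p. It read 8.41, 8.43 and 8.63 in the mutant against 8.81, 8.85 and 8.79 in Col-0 on the log2 scale. Every mutant array lay below every Col-0 array, and the log2 change was -0.33 (SE 0.14, 95% interval from -0.65 to -0.01, unadjusted p = 0.04385, adjusted p = 0.1698). Its share was 10.3% ± 0.969 in the mutant and 13.6% ± 0.244 in Col-0 (SD, n = 3 each). AT2G01250 held 58.2% ± 0.730 and 55.8% ± 1.22 (SD, n = 3 each), also without overlap, and AT2G44120 27.6% and 27.8%. The log2 ratio of AT3G13580 to the mean of the other L7 genes differed by -0.61, without overlap (exact permutation p = 0.1, adjusted p = 0.2545). In size this exceeds the 0.47 of AT3G53430 for L12, though the mean includes AT1G80750, the most spread member. The log2 ratio of AT2G01250 to the mean of the other L7 genes differed by 0.02, with overlap. Its level overlapped too, with a log2 change of 0.14 (SE 0.13, adjusted p = 0.5505). The fourth gene, AT1G80750, held 4.01% and 2.85%, with overlap.

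L7a, L14, L15 and L18 each have 2 measured paralogues. AT3G62870, for L7a, read 11.12, 11.21 and 11.42 in the mutant against 10.99, 11.10 and 10.73 in Col-0 on the log2 scale, without overlap. Its log2 change was 0.31 (SE 0.15, adjusted p = 0.215), and it was 0.20 without Col-0 replicate 3 and 0.12 on the first station. Its share was 59.8% ± 4.26 and 56.0% ± 1.77 (SD, n = 3 each), with overlap, and the difference of 3.81 points was 1.35 without mutant replicate 3 and 1.01 on the first station. AT2G20450, for L14, held 13.9%, 15.2% and 15.7% of the L14 signal in the mutant and 13.6%, 13.2% and 11.8% in Col-0. Those shares were without overlap and differed by 2.08 percentage points (exact permutation p = 0.1), and AT4G27090 supplied the rest. On the first station the difference was 1.17 points. AT2G20450 read 7.89, 8.14 and 8.24 in the mutant against 7.78, 7.94 and 7.94 in Col-0 on the log2 scale, a change of 0.21 (SE 0.16, adjusted p = 0.4663), or 0.13 without mutant replicate 3. AT4G27090 read 10.52, 10.62 and 10.66 against 10.44, 10.66 and 10.84, a change of -0.05 (SE 0.14, adjusted p = 0.877). Both genes overlapped between the genotypes in level.

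AT4G16720 held 58.3% ± 1.45 of the L15 signal in the mutant and 53.9% ± 3.10 in Col-0 (SD, n = 3 each), and AT4G17390 the rest, with overlap. The difference of 4.45 points was 2.82 without Col-0 replicate 2. For L18, AT5G27850 read 10.71, 10.98 and 10.77 in the mutant against 10.65, 10.65 and 10.67 in Col-0 on the log2 scale. These values were without overlap, and the log2 change was 0.16 (SE 0.13, adjusted p = 0.4645), or 0.08 without mutant replicate 2. Of the summed signal of the 2 measured L18 genes, AT5G27850 gave 99.6% in the mutant and 99.5% in Col-0, since AT2G47570 lies at the bottom of the scale. The listed L18 gene RPL18 (AT3G05590) has no named probe set here and is not in these shares. AT2G47570 read 2.86, 2.96 and 2.80 in the mutant and 3.07, 2.90 and 3.14 in Col-0, with overlap. Its share, 0.405% ± 0.0259 and 0.507% ± 0.0384 (SD, n = 3 each), was without overlap, and whether it was detected is not known. Of the 2 measured L13 genes, AT5G23900 held 99.4% of the signal in the mutant and 99.3% in Col-0, since AT3G48960 lies at the bottom of the scale. The listed L13 gene BBC1 (AT3G49010) has no named probe set here and is not in these shares.

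L6 and L9 have 1 gene measured alone. AT1G18540, for L6, read 10.46, 10.88 and 10.64 in the mutant against 10.21, 10.34 and 10.43 in Col-0 on the log2 scale. The genotypes did not overlap, and the log2 change was 0.33 (SE 0.15, adjusted p = 0.1897). The other L6 genes, AT1G74060 and AT1G74050, share a probe set, whose log2 change was -0.09 (SE 0.13). Set against that probe set, AT1G18540 held 63.2% of the signal in the mutant and 56.3% in Col-0, with no overlap (exact permutation p = 0.1). AT4G10450, for L9, had a log2 change of -0.06 (SE 0.15), and the probe set that names PGY2 together with AT1G33120 had one of 0.12 (SE 0.14). No L10 or L11 gene has a named probe set here.

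**Figure D5:**
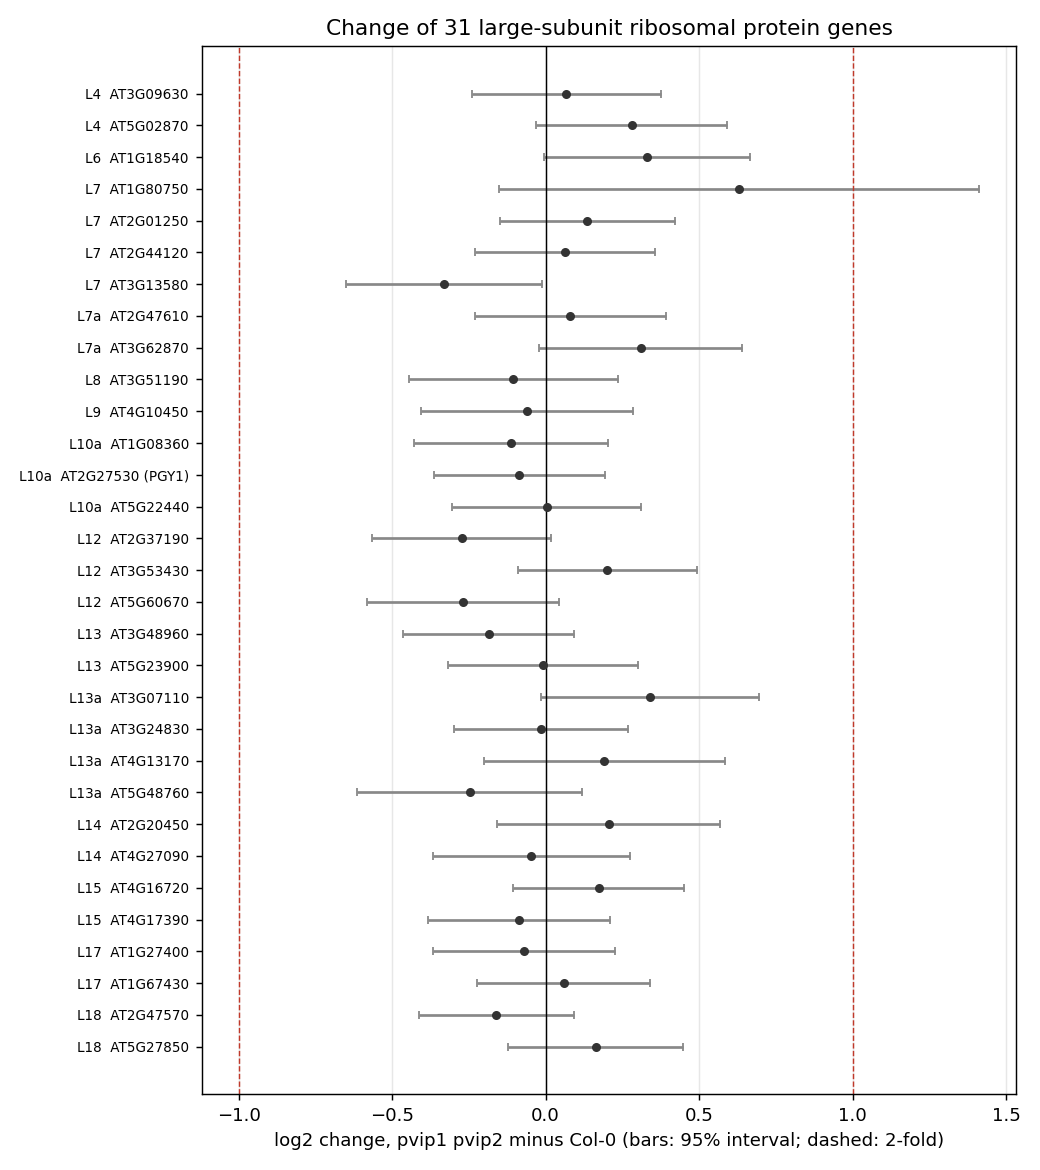
Log2 change, pvip1 pvip2 minus Col-0 (horizontal axis), of the 31 measured members with the 95% interval of the limma fit. Dashed lines mark a 2-fold change, which only the interval of AT1G80750 reaches.

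In all, 12 of the 28 shares (42.9%) did not overlap between the genotypes, 6 higher and 6 lower in the mutant. Among 87 shares of the paralogues of 34 other cytosolic ribosomal proteins the figure was 43.7%. With all arrays the members' count thus lies near that background. A higher share of any paralogue comes with a lower share of another, so the balance of higher and lower is in part fixed. Both L18 shares are in the count and rest on AT2G47570, for which detection is not known. The median size of a share difference was 2.08 percentage points for the members and 1.56 for those others, whose largest was 6.60. The log2 ratio of a paralogue to the mean of its measured partners did not overlap for 11 of 28 members (39.3%), against 44.8% of the others. The count of shares rose to 19 of 28 (67.9%) if Col-0 replicate 3 was left out, against 47.1% of the others, and to 14 of 28 if Col-0 replicate 1 was, against 59.8% of the others. On the first station it was 21 (75.0%), against 62.1%. As differences within replicate numbers that all had 1 sign it was 19 (67.9%), against 62.1%. Groups of fewer arrays overlap less often by construction, and how far the members differ from the others in these counts was not tested. The summed signal of a protein did not overlap between genotypes for L7a and L18 alone among the 11, with log2 differences of 0.22 and 0.16 (exact permutation p = 0.1 each, 0.55 adjusted over the 11). No such count is given here for the other ribosomal proteins, so this one has no background. The L7a sum was 11.58 in Col-0 replicate 3, against 11.86 and 11.88 on the other Col-0 arrays. The L18 sum, which lacks the unmeasured RPL18, was 10.99 in mutant replicate 2, against 10.71 and 10.78 on the other mutant arrays.

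Within the mutant, replicate 1 was the lowest array for 24 of the 31 members and replicate 3 the highest for 20. In Col-0, replicate 1 was the lowest for 14 and replicate 2 the highest for 13. These counts are given for the members alone, so whether other probe sets show the same order is not known. The median log2 signal of the members ran from 10.25 to 10.45 over the 6 arrays. Over the members, the SD between arrays ran from 0.07 to 0.41 in the mutant and from 0.01 to 0.66 in Col-0, on the log2 scale.

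Other genes of the translation machinery were examined by list. Of 51 other large-subunit genes measured, of 86 listed, 0 were called (limma, adjusted p under 0.05), against 13.4% of all probe sets. The median log2 change of these genes was 0.06. At an unadjusted p under 0.05 there were 2. With the replicate block 2 were called, both higher, against 19.2% of all probe sets. They were AT3G16780, for L19, at a log2 change of 0.67 (adjusted p = 0.06904, or 0.01443 with the block) and AT2G32220, for L27, at 0.86 (adjusted p = 0.05254, or 0.0141 with the block). Of 47 small-subunit genes measured, of 92 listed, 1 fell and 0 rose, with a median log2 change of 0.03. At an unadjusted p under 0.05 there were 5 (10.6%, against 27.1% of all probe sets). The genotypes did not overlap for 15 of the 47, against 32.2% of all probe sets and 46.1% of those with a mean log2 signal of 8 or more. For the other large-subunit genes this count was 5 of 51, and for the ribosome biogenesis genes 1 of 11.

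The gene that fell was AT5G15520, for S19. It read 6.68, 6.90 and 6.83 in the mutant against 7.34, 7.37 and 7.75 in Col-0 on the log2 scale, without overlap. Its log2 change was -0.69 (SE 0.18, adjusted p = 0.0369), and it was not called when mutant replicate 2, mutant replicate 3 or Col-0 replicate 2 was left out, or on the first fluidics station alone. With the block, AT3G57490, for S2, and AT5G39850, for S9, were called higher as well, at 0.70 and 0.80 (adjusted p = 0.0318 and 0.03668, against 0.05905 and 0.06247 without it). None of the 11 measured ribosome biogenesis genes, of 32 listed, or of the 2 measured elongation factor genes, of 11, was called by limma, with 1 and 0 at an unadjusted p under 0.05. Their median log2 changes were 0.11 and 0.01.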

How the data were processed

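Log2 values of 6 single-colour Affymetrix ATH1 arrays, as deposited by the authors, were used without rescaling. The submitters' processing notes name GCOS, and how they corrected background, summarised probes and normalized is not given in those sources. No source used here states the base of the log; it was taken as 2 from the range, 1.69 to 13.37. The 64 control probe sets were left out. Depth has no meaning here; the number of arrays limits the precision. Genes were named from the platform annotation and the TAIR10.1 gene table, which held all 44 loci; 13513 probe sets have 1 gene, 503 several and 8730 none here. Grouping of loci by protein and all lists came from background knowledge of the loci.

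For the genotype comparison limma 3.58.1 was run under R 4.3.3 (lmFit, then eBayes with a trend; two-sided, no level filter), with Benjamini-Hochberg adjustment over all 22746 probe sets, after a check on simulated data. Shares and log ratios used two-sided exact permutation tests over arrays. The members and lists were chosen with earlier results of these data known, and the bound of 8 and the 34 other proteins after the values were seen. The text gives in full PGY1, every called member and every protein with no overlapping share among its paralogues (L12, L14 and L18); the other members given in full were picked after their values were seen.

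The labels call the arrays biological replicates. Deviations from the genotype mean, across probe sets, correlated at 0.539, 0.312 and 0.121 between arrays of replicate number 1, 2 and 3. Mutant replicate 2 and Col-0 replicate 3 correlated at 0.228, and mutant replicate 3 and Col-0 replicate 2 at 0.0989. The other unlike numbers ran from -0.413 to -0.173, so pairing is not clear for replicates 2 and 3. The numbers were taken as pairs in the replicate block alone, and the main fit and the exact permutation tests were unpaired. Scanner setting files gave the fluidics station, the first with 2 arrays of each genotype and the second with 1 of each. Mutant arrays used modules 2 and 4 and Col-0 arrays modules 1 and 3, so module and genotype cannot be told apart. Alternatives were the replicate block, a filter at the 40th percentile, no variance trend, equal medians, quantile normalization, a pseudocount of 64, array weights, the station, subtraction of the 5th percentile, shared probe sets and leaving out each array.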

Additional observations from a re-analysis of the deposited data

How the results depend on the processing

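The count of called members was 0 under all 15 alternatives, and the lowest adjusted p of any member in any of them was 0.05671 (AT3G07110). The replicate block changed no member's call. Over all probe sets 946 were called on the first fluidics station alone and 1773 to 2800 when each array was left out, against 3040. For the other ribosomal, biogenesis and elongation lists the count of 1 became 5 with the replicate block, 3 with the level filter, 2 without a trend, 3 with equal medians, 6 with array weights, 2 when blocked by station, 0 on the first station and 0 to 2 without single arrays. It was 0 without mutant replicate 2, mutant replicate 3 or Col-0 replicate 2, which ends the call of AT5G15520. Shares without overlap, 12, became 21 on the first station, 19 as paired differences of one sign with the replicate block and 12 to 19 without single arrays. Log ratios, 11, became 22 (78.6%), 17 (60.7%) and 11 to 18 in that order, against 62.1% of the other ribosomal log ratios in each of the first 2 settings; these background counts were added after the data were seen. Some members' differences near 0 turned sign. The log2 change of AT5G22440 was -0.0089 with equal medians, -0.0531 with quantile normalization, -0.0094 with array weights and -0.0355 on the first station. That of AT3G24830 was 0.0264 with quantile normalization and that of AT5G23900 0.0336 with array weights. On the first station the log2 change was -0.0651 for AT3G09630, 0.0039 for AT4G10450 and 0.0188 for AT4G27090. With quantile normalization the PGY1 share changed by 0.6316 points and its log ratio by 0.0248, and the AT4G13170 share by -0.1209. On the first station the AT1G08360 share changed by 1.9232 and its log ratio by 0.0801, and the AT2G01250 log ratio by -0.14. Without single arrays, log2 changes ran from -0.0136 to 0.1359 for AT3G09630, -0.0041 to 0.1459 for AT2G47610, -0.1065 to 0.0273 for AT4G10450, -0.0171 to 0.0422 for AT5G22440, -0.088 to 0.0451 for AT5G23900, -0.0748 to 0.0617 for AT3G24830 and -0.1498 to 0.0501 for AT4G27090. Log ratio changes ran from -0.1016 to 0.1346 for AT2G01250, -0.1615 to 0.0228 for AT2G44120, -0.146 to 0.0386 for AT1G08360 and -0.0897 to 0.0445 for PGY1. Share changes ran from -0.5235 to 0.1057 for AT2G44120, -2.1827 to 1.0674 for AT1G08360 and -1.4934 to 1.4114 for PGY1. The causes were not tested. The number of arrays, 3 per genotype, limits what can be told: no exact test of a share can fall below 0.1.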
